A study of Danio rerio with 2 samples.

Results

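The visual opsins are the light-absorbing proteins of the cones and rods of the retina. Their RNA was examined in whole zebrafish lri12 mutant larvae and in wild-type siblings. The genes were chosen by symbol: opn1sw1 for ultraviolet (UV) cones, opn1sw2 for blue cones, opn1mw1 to opn1mw4 for green cones, opn1lw1 and opn1lw2 for red cones, and rho for rods. All 9 genes were present among the 40114 loci of the deposited table, and they filled 8 loci because opn1mw1 and opn1mw2 share one. Of these 8 loci, 6 averaged 1 FPKM or more. FPKM scales fragments by transcript length and library size, so levels of different genes can be set side by side per length.

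The mutant group was 1 pool of 20 whole bodies of lri12 mutant larvae at 5 days post-fertilization (dpf), and the wild-type group was 1 pool of 20 whole bodies of siblings of the same age. The mutant title is spelled lir12, while its genotype reads lri12. Which gene carries the mutation is not said in the labels. With 1 pool for each genotype there was no replicate check and no test, so each difference below is between 2 libraries. Summed FPKM came to 922323 in the mutant and 894747 in wild type, over all loci, named or not, except those left out as failed. The absolute number of reads is not known.

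In zebrafish each cone type carries its own opsin class, and rods carry rhodopsin. Light changes the shape of the opsin, which activates the G protein transducin. Transducin switches on a phosphodiesterase that lowers cyclic GMP and closes a channel in the outer segment, and kinases and arrestins then end the response. Green and red opsins are each encoded by a tandem array of copies, whose members are used at different ages and in different parts of the retina. Larval vision at this age rests mainly on cones.

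All 6 opsin loci above 1 FPKM were lower in the mutant pool, by 1.17-fold to 1.33-fold, where 48.7% of all genes at that level were lower by any amount. Summed over the 8 loci, visual opsin RNA stood at 3724 FPKM in the mutant and 4625 FPKM in wild type, 1.24-fold lower in the mutant. Folds are of FPKM + 1, a scale that understates the difference of low genes. The cone opsins together were 1.24-fold lower, at 3342 FPKM in the mutant and 4142 FPKM in wild type, and the rod opsin was 1.26-fold lower. Of the 6 loci, 5 were lower by 1.2-fold or more and 0 were higher by as much. Among the 18664 genes that averaged 1 FPKM or more, 7.39% were lower by 1.2-fold or more and 5.9% higher by as much. None of the 6 reached 2-fold, as 0.439% of all genes did on the lower side and 0.289% on the higher side. The 6 loci are read from the same pools and the same organ, and their shared direction is not a set of independent observations.

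**Figure D1:**
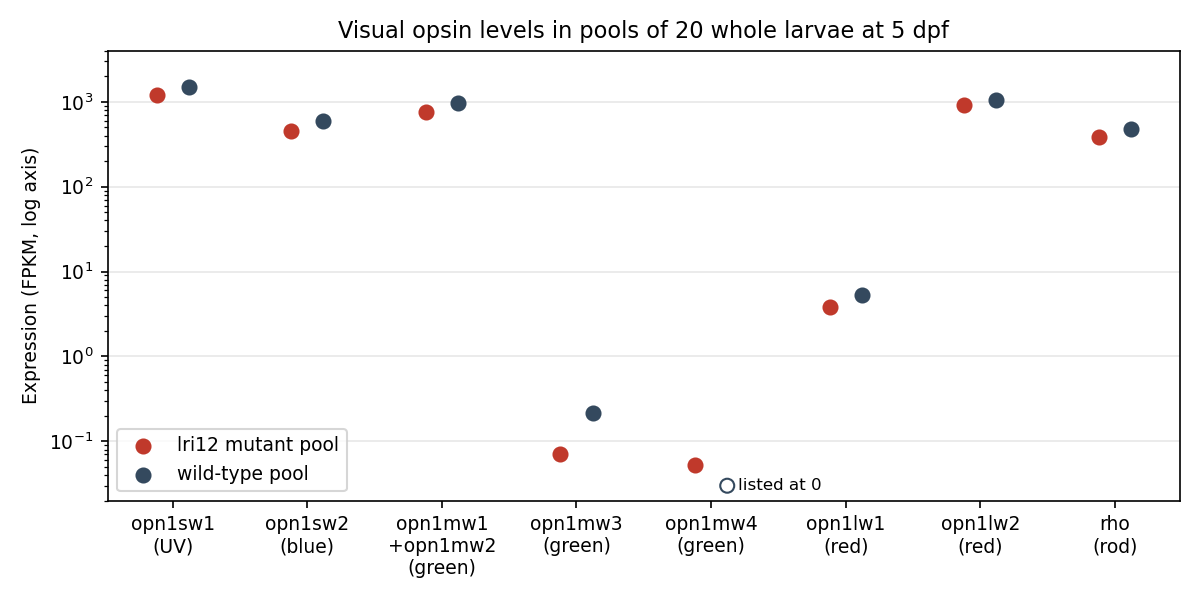
Level of each visual opsin locus in the lri12 mutant pool (red, left of each pair) and the wild-type pool (dark, right), as FPKM on a log axis; each point is 1 pool of 20 larvae and the open circle marks a value listed at 0. In each of the 6 loci above 1 FPKM the mutant point lies just under the wild-type point, and opn1lw1, opn1mw3 and opn1mw4 lie far below the others.

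The UV opsin gene opn1sw1 was the most abundant in both pools. It stood at 1216 FPKM in the mutant and 1501 FPKM in wild type, 1.23-fold lower in the mutant. Ordered by level among the 18664 genes, it held rank 130 in the mutant and rank 116 in wild type. The deposited table (Zv9 build) places its locus on chromosome 4, 12642188 to 12644872.

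The blue opsin gene opn1sw2 had the largest log2 difference among the 6 loci on the scale of FPKM + 1. With a pseudocount of 0.1 in place of 1, the low red copy opn1lw1 passed it, at -0.45 against -0.41. Its level was 451 FPKM in the mutant and 598 FPKM in wild type, a log2 difference of -0.41 or 1.33-fold lower. Its locus lies on chromosome 11, 26406316 to 26408962. UV opsin RNA exceeded blue opsin RNA 2.70-fold in the mutant and 2.51-fold in wild type.

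Green opsin RNA was listed almost wholly at the locus of opn1mw1 and opn1mw2 on chromosome 6 (41112732 to 41120324), the early members of the green array. That locus stood at 761 FPKM in the mutant and 973 FPKM in wild type, 1.28-fold lower in the mutant. The table gives 1 value for both genes, so neither copy can be described alone. The next copy, opn1mw3 (41122345 to 41124283), was listed at 0.0716 FPKM in the mutant and 0.218 FPKM in wild type. The last copy, opn1mw4 (41131363 to 41133418), was listed at 0.0529 FPKM in the mutant and at 0 in wild type. Both are copies known for use later in life, and at these levels no difference between genotypes can be read. How the authors' program divided reads between the green copies is not stated, so these low values are uncertain.

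The red opsin gene opn1lw2, the copy known for early use, stood at 911 FPKM in the mutant and 1065 FPKM in wild type. It was 1.17-fold lower, the smallest difference of the 6 loci and the only one of them under 1.2-fold. Its neighbour opn1lw1, the copy known for later use, stood at 3.81 FPKM in the mutant and 5.25 FPKM in wild type, 1.30-fold lower. The early copy thus exceeded the late copy 239-fold in the mutant and 203-fold in wild type. Their loci are on chromosome 11, at 26414604 to 26416765 for opn1lw2 and 26411201 to 26413596 for opn1lw1. The 2 red genes are closely similar copies, and how the authors' program divided reads between them is not stated, so the low value of opn1lw1 is uncertain.

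The rod opsin gene rho (chromosome 8, 55706884 to 55708411) stood at 381 FPKM in the mutant and 482 FPKM in wild type. Its log2 difference of -0.34 lay inside the range of the cone opsins, which ran from -0.41 to -0.23. Cone opsin RNA was 8.77 times rod opsin RNA in the mutant and 8.59 times in wild type.

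The order of levels was the same in both pools: opn1sw1, opn1lw2, opn1mw1 with opn1mw2, opn1sw2, rho, opn1lw1, opn1mw3 and opn1mw4. Some steps in that order were small. The step between opn1lw2 and the green locus was 1.198-fold in the mutant and 1.095-fold in wild type. The step between opn1sw2 and rho was 1.18-fold in the mutant and 1.24-fold in wild type. These steps are of the same size as the differences between the pools, and with 1 pool a genotype there is no spread against which to place them. The step between rho and opn1lw1 was 100-fold in the mutant and 91.8-fold in wild type.

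The make-up of visual opsin RNA by class differed little between the pools. UV opsin held 32.7% of summed visual opsin FPKM in the mutant and 32.5% in wild type. Red opsins held 24.6% in the mutant and 23.1% in wild type, the largest gap of the 5 classes at 1.42 percentage points. Green opsins held 20.4% in the mutant and 21.0% in wild type. Blue opsin held 12.1% in the mutant and 12.9% in wild type, and rod opsin 10.2% in the mutant and 10.4% in wild type. As a share of the FPKM of all loci except failed ones, visual opsins held 0.404% in the mutant and 0.517% in wild type.

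**Figure D2:**
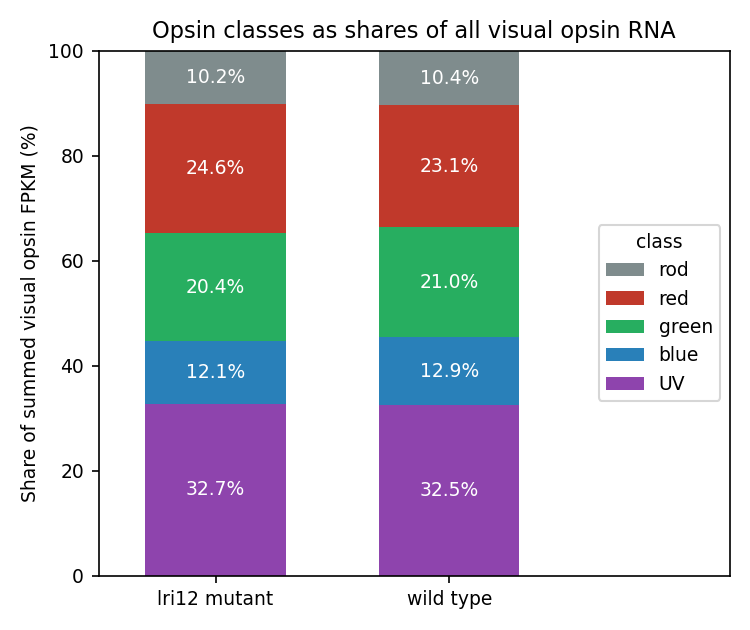
Share of each opsin class in the summed visual opsin FPKM (%), lri12 mutant on the left and wild type on the right; each bar is 1 pool and the classes are stacked to 100%. The class shares of the 2 bars lie within 1.42 percentage points of each other.

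How far the opsins stood from other genes depended on the genes they were set beside. The median log2 difference of the 6 loci was -0.35, against 0.004 for all 18664 genes. Between the 5th and 95th percentiles those genes ran from -0.33 to 0.28, and 4 of the 6 opsin loci lay below that range. Abundant genes ran more widely. For the 764 genes that averaged 100 FPKM or more, the same percentiles were -0.59 and 0.34, and 0 of the 5 opsin loci at that level lay below them. Of those 764 genes, 12.2% were lower by 1.2-fold or more and 9.16% higher by as much, and 4 of the 5 abundant opsins were among the lower ones. That level was chosen after the values were seen.

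In the authors' deposited table, the p-values of the 7 opsin loci that were tested ran from 0.115 for opn1lw1 to 0.562 for opn1lw2, all with a q of 0.999. The eighth, opn1mw4, was marked there as not tested. There 0.348% of tested loci had a q under 0.05. Those values rest on 1 pool against 1 pool and do not measure variation between clutches.

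The genes that flank the opsins were read in the same way. On chromosome 11 the genes opn1sw2, opn1lw1 and opn1lw2 lie in that order within 10449 bases. The nearest named genes above 1 FPKM on each side were hcfc1a, at 8.30 FPKM in the mutant and 8.14 FPKM in wild type, and gnl3l, at 16.1 FPKM in the mutant and 16.7 FPKM in wild type. Both stood within 0.05 of 0 on the log2 scale, against -0.23 to -0.41 for the 3 opsins between them. The microRNA dre-mir-726, which lies between opn1sw2 and opn1lw1, was listed at 0 in both pools. Its locus is short, 26409657 to 26409744, so a listed 0 cannot be read as absence of its RNA.

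On chromosome 6 both flanking genes were lower in the mutant too. The gene slc6a13l, named for a solute carrier, stood at 6.07 FPKM in the mutant and 7.33 FPKM in wild type, 20849 bases before the green array. The synaptic vesicle gene synpr stood at 3.35 FPKM in the mutant and 4.28 FPKM in wild type, 20649 bases after it. Their log2 differences were -0.24 and -0.28, against -0.35 for the locus of opn1mw1 and opn1mw2.

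The single opsin loci had flanking genes with smaller differences or the opposite sign. Beside opn1sw1, calua was higher in the mutant (25.8 FPKM in the mutant, 21.6 FPKM in wild type) and tnpo3 stood at 14.4 FPKM in the mutant and 14.7 FPKM in wild type. Beside rho, the genes listed as MAGI1 (2 of 2) and PRICKLE2 (2 of 2) had log2 differences of -0.10 and -0.09.

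**Figure D3:**
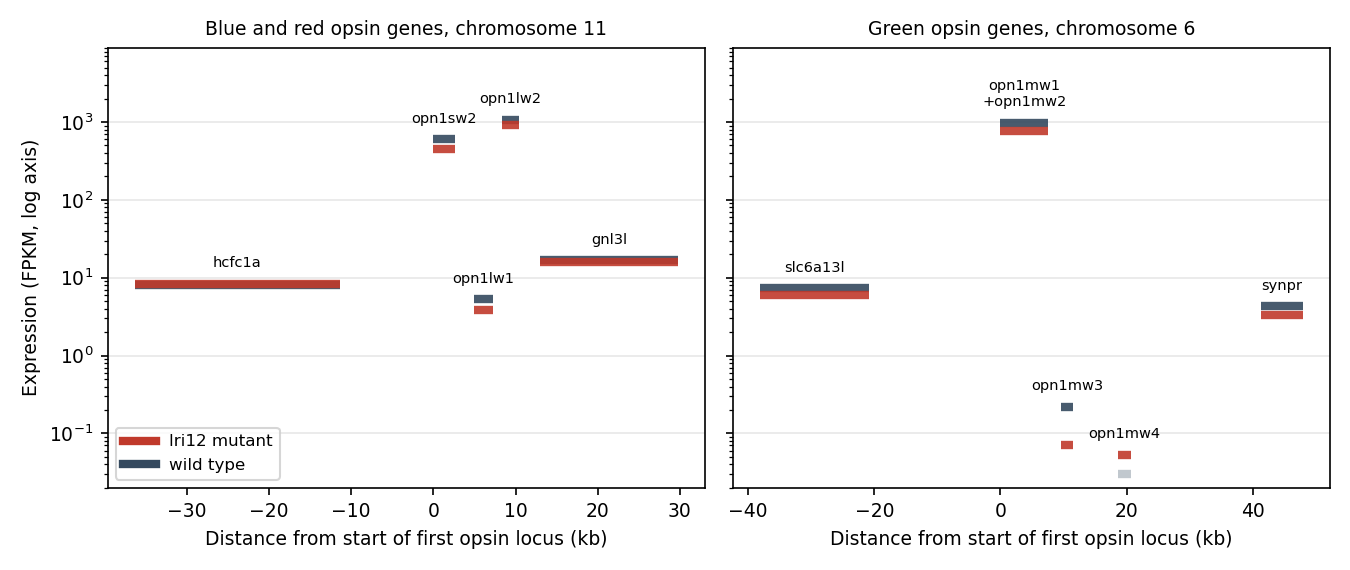
Levels (FPKM, log axis) of the blue, red and green opsin loci and of the nearest named gene above 1 FPKM on each side, by distance in kb from the start of the first opsin locus; each bar spans 1 locus, red for the lri12 mutant and dark for wild type, and the pale bar of opn1mw4 marks a wild-type value listed at 0. The abundant opsins stand at 451 FPKM or more in both pools, while the copies opn1lw1, opn1mw3 and opn1mw4 in the same arrays stand at 5.25 FPKM or less.

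The other phototransduction genes of cones were spread more widely than the opsins, with 16 of 19 below 0 and 3 above. Of 19 measured cone genes above 1 FPKM, 9 were lower by 1.2-fold or more, 1 was higher by as much and 9 were inside these limits. Their median log2 difference was -0.20. The background is again 7.39% lower and 5.9% higher by 1.2-fold or more, and 48.7% below 0 by any amount. The phosphodiesterase subunit gene pde6h stood at 244 FPKM in the mutant and 393 FPKM in wild type, a log2 difference of -0.69. The table lists 6 more gene models at its locus, 11 more at that of pde6c and 5 more at that of gngt2b, so reads there may have been divided among them. The catalytic subunit gene pde6c (-0.29) and the transducin beta gene gnb3b (-0.29) were the closest in log2 difference to opn1sw1, -0.30. The gene closest to opn1sw2 was the rod kinase gene grk1a, followed by the cone kinase gene grk7a, at 29.0 FPKM in the mutant and 38.8 FPKM in wild type. At 2.54 FPKM in the mutant and 3.70 FPKM in wild type, grk1a was low, so its closeness depends on the pseudocount of 1. Likeness here is 1 difference over 2 pools, taken over 63 genes of phototransduction, the outer segment and the visual cycle, and it says nothing of shared control.

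Not every abundant cone gene stood lower. The cone transducin alpha gene gnat2 stood at 271 FPKM in the mutant and 354 FPKM in wild type, but the cone arrestin gene arr3a stood at 160 FPKM in the mutant and 158 FPKM in wild type. The recoverin gene listed as rcv1 stood at 142 FPKM in the mutant and 143 FPKM in wild type. These 3 genes were picked after their values were seen. The 2 transducin gamma genes went opposite ways: gngt2b stood at 680 FPKM in the mutant and 756 FPKM in wild type, and gngt2a at 43.6 FPKM in the mutant and 34.5 FPKM in wild type. The lowest cone gene by log2 difference was guca1d, a calcium sensor of guanylate cyclase, at 2.14 FPKM in the mutant and 4.35 FPKM in wild type.

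Most rod genes other than rho had smaller log2 differences than rho itself. Of 13 rod genes above 1 FPKM, 1 was lower by 1.2-fold or more, 0 were higher by as much and 12 were inside these limits. Their median was -0.19. The share past 1.2-fold on the lower side is near the 7.39% of all genes, so the count is not a result about rod genes. By any amount, 10 of the 13 were below 0, where 48.7% of all genes were. The one past 1.2-fold was the kinase gene grk1a, at 2.54 FPKM in the mutant and 3.70 FPKM in wild type. The rod transducin gamma gene gngt1, which pineal cells also express, stood at 66.2 FPKM in the mutant and 78.1 FPKM in wild type. The transducin beta gene gnb1a stood at 68.17 FPKM in the mutant and 68.35 FPKM in wild type. Whole bodies include other cells that may express genes of this list, so its counts and median are not of rods alone. The phosphodiesterase gene pde6a had a log2 difference of -0.25, and the channel gene cngb1a was the highest of the list at 0.17. Outer segment genes used by both photoreceptor types had a median of -0.11 over 13 genes, with 1 lower by 1.2-fold or more, again near the 7.39% of all genes. By any amount, 12 of these 13 were below 0, against 48.7% of all genes. The disc genes prph2b (72.8 FPKM in the mutant, 79.4 FPKM in wild type) and prph2a (56.2 FPKM in the mutant, 64.6 FPKM in wild type) were the most abundant of that list.

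The visual cycle returns the chromophore of the opsins to its light-sensitive form. Its genes, listed together with genes of retinoid supply and transport, had a median of -0.18 over 18 genes. Of these, 4 were lower by 1.2-fold or more, 1 was higher by as much and 13 were inside these limits, against 7.39% of all genes lower and 5.9% higher. By any amount, 15 of the 18 were below 0, against 48.7% of all genes. Among the 4 was rgrb, named here after its value was seen. Its locus holds 21 more gene models, so reads there may have been divided among them. The retinoid transporter gene stra6, at 14.6 FPKM in the mutant and 18.7 FPKM in wild type, and the retinol dehydrogenase gene rdh5, with a log2 difference of -0.32, were the closest in log2 difference to rho. The gene stra6 was also the closest to the locus of opn1mw1 and opn1mw2. The gene listed as bcmo1, a carotene-cleaving enzyme, was the lowest at -0.49, and lrata, a retinol esterifying enzyme, the highest at 0.26. Whole bodies include other tissues that may express such genes, so these values are not of the eye alone.

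Regulators of photoreceptor identity and of opsin choice stood on both sides of 0, with 14 above it and 7 below, where 48.7% of all genes were below. Of 21 measured regulators, 2 were lower by 1.2-fold or more, 1 was higher by as much and 18 were inside these limits. Their median was 0.05, and both counts are near the shares of all genes, 7.39% lower and 5.9% higher. The 2 lower ones were nr1d1, which also belongs to the circadian clock, and six6a, a gene of low level with a log2 difference of -0.33. The higher one was prdm1a, at 4.90 FPKM in the mutant and 3.83 FPKM in wild type.

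Several regulators are known for a single opsin class, and they are named here for that role after their values were seen. For the UV class, tbx2b stood at 13.2 FPKM in the mutant and 12.5 FPKM in wild type. For the blue class, foxq2 stood at 1.64 FPKM in the mutant and 1.27 FPKM in wild type. The gene six7, needed for green and blue opsins, stood at 11.2 FPKM in the mutant and 12.8 FPKM in wild type. For the red class, the thyroid hormone receptor gene thrb stood at 4.71 FPKM in the mutant and 4.13 FPKM in wild type. For rods, nr2e3 stood at 3.01 FPKM in the mutant and 3.65 FPKM in wild type. The general photoreceptor factor crx stood at 34.1 FPKM in the mutant and 31.2 FPKM in wild type. On the scale of FPKM + 1 none of these 6 reached 1.2-fold in either direction, and that scale shrinks the differences of genes as low as foxq2 and nr2e3. These 6 are a choice, and other members of the list could be named beside them. On that scale nrl, also a low gene, stood higher in the mutant, with a log2 difference of 0.16. The genes six6a and six6b had log2 differences of -0.33 and 0.05, and six6a was lower by more than 1.2-fold. Some of these regulators are also expressed outside photoreceptors, which whole bodies include.

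Other cells of the eye were measured in the same pools. Of 37 genes marking bipolar, horizontal, amacrine and ganglion cells and Müller glia, 2 were lower by 1.2-fold or more, 1 was higher by as much and 34 were inside these limits. Their median was -0.03, and neither count exceeds the shares of all genes, 7.39% lower and 5.9% higher. By any amount, 22 of the 37 were below 0, against 48.7% of all genes. That ran from 0 of 3 horizontal cell genes to 8 of 9 ganglion cell genes. Many of the 37 are also genes of the brain or of other tissues, so these values are not of the retina alone. Genes listed for the photoreceptor synapse had a median of -0.10 over 9 genes, with 2 lower by 1.2-fold or more, where 7.39% of all genes were. By any amount, 7 of the 9 were below 0, against 48.7% of all genes. Of the 14 entries in that list, 5 matched none. Other neurons in whole bodies may express the rest, so these values are not of photoreceptors alone. Lens genes lay on the other side, with 11 of 26 higher by 1.2-fold or more, 1 lower by as much and a median of 0.24. Of all genes, 5.9% were higher and 7.39% lower by that fold, and of genes of at least 100 FPKM 9.16% and 12.2%. Summed lens FPKM came to 11514 in the mutant and 9400.0 in wild type, led by crybb1 at 1866 FPKM in the mutant and 1529 FPKM in wild type. In bulk samples such as these, fewer cells of a type and less RNA per cell cannot be told apart.

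**Figure D4:**
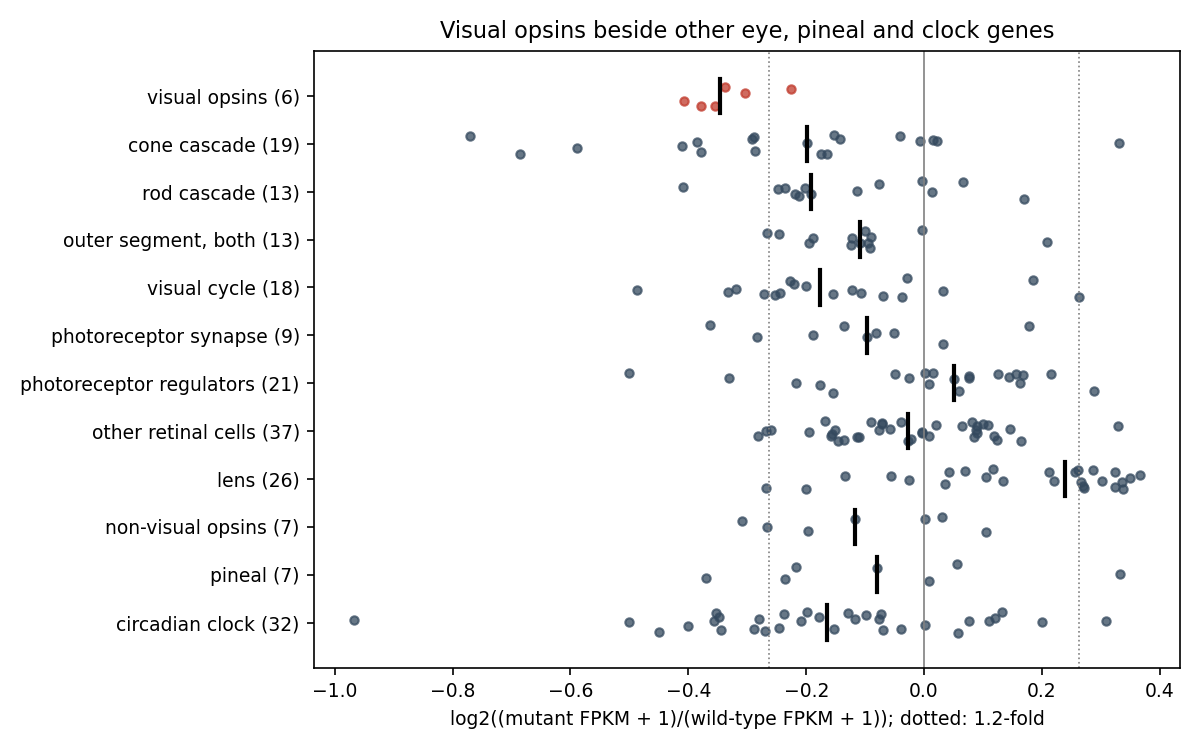
Log2 difference of FPKM + 1, mutant over wild type, for each measured gene above 1 FPKM in 12 lists; each point is 1 gene (number per list in brackets), black bars are list medians, dotted lines mark 1.2-fold, and vertical scatter within a row has no meaning. The 6 visual opsin loci (red) sit together between -0.41 and -0.23, regulators of photoreceptors and other retinal cells lie around 0, and lens genes lie mostly above 0.

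Opsin RNA in zebrafish is known to vary with the time of day, and part of the clock genes also stood lower in the mutant pool. Of 32 measured clock genes, 11 were lower by 1.2-fold or more, 1 was higher by as much and 20 were inside these limits. Their median was -0.17, and the shares of all genes were 7.39% lower and 5.9% higher. The gene listed as zgc:77060, matched to nfil3-6, was the lowest, at 12.5 FPKM in the mutant and 25.4 FPKM in wild type, and nr1d1 stood at 44.0 FPKM in the mutant and 62.7 FPKM in wild type. The labels give no hour of collection, and the part of the clock in the opsin differences was not tested. Genes listed for the pineal, the other site of photoreceptor cells, had a median of -0.08 over 7 genes. Of these, 1 was lower and 1 higher by 1.2-fold or more, where 7.39% and 5.9% of all genes were. The higher one was aanat2, the melatonin synthesis enzyme of the pineal, at 3.09 FPKM in the mutant and 2.24 FPKM in wild type. The lower one was its relative aanat1, at 1.04 FPKM in the mutant and 1.64 FPKM in wild type, which does not mark the pineal alone. The list also shares gngt1 with the rod genes and otx5 with the photoreceptor regulators. Its counts and median are therefore not of the pineal alone. Opsins of non-visual light sensing had a median of -0.12 over 7 genes, of which 2 were lower by 1.2-fold or more, where 7.39% of all genes were. The lower ones were the melanopsin gene opn4l, in a locus joined with another gene model, and valopa. The latter stood at 1.11 FPKM in the mutant and 1.54 FPKM in wild type, close to the entry limit of 1 FPKM. That list held 28 entries, of which 14 matched none and others averaged under 1 FPKM, so the 7 genes are only part of it.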

How the data were processed

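RNA from whole larvae was sequenced, and the data were 1 table with the column names of a Cuffdiff comparison, per the file headers. The deposited values were taken as FPKM, which is what those columns hold in Cuffdiff output; no label states the unit. The authors' p-values and q-values in the deposited table were quoted as theirs. CASAVA, Bowtie and the build Zv9 are named, without versions, in the submitters' processing notes. For strand, annotation and reads that match several copies, the settings were not given in the sources used here. Coordinates are printed as the table gives them; whether starts count from 0 or 1 is not stated.

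With Python 3.11.15 and pandas 2.3.3, loci sharing a symbol were summed and failed or unnamed loci left out. Differences are log2((mutant + 1)/(wild type + 1)), and genes entered with a mean of at least 1 FPKM. Folds of 1.2 and 2 are rules of size. No test was made, since each genotype has 1 pool. Of 280 entries in 11 other gene lists, 186 matched as written, 38 through synonyms in a RefSeq table (GRCz12tu, names only) and 56 matched none. Functions were tested on simulated data. Among 1786 low loci, the commonest log2 ratio was -0.15, which equal read numbers would give at 1.11 mutant reads per wild-type read. Absolute depth is unknown, so no counting interval is given.

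Genes named were all opsins, the 2 most abundant, 2 lowest and 1 highest of a list, and the 2 closest to each opsin above 5 FPKM; others are marked as chosen after their values were seen, except flanking genes, taken by position. Not all genes the rule allows are printed. Members and lists were chosen with earlier results of these data known. Alternatives were pseudocounts of 0.1 and 5, 2 rescalings, the highest locus of a symbol and other limits on the mean.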

Additional observations from a re-analysis of the deposited data

How the results depend on the processing

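Under the alternatives run for each, the summed visual opsins stayed lower at -0.32 to -0.29 on the log2 scale (6 alternatives), their median at -0.35 to -0.32 (8 alternatives), and 4 to 5 loci were lower by 1.2-fold or more (8 alternatives). The alternatives covered pseudocounts of 0.1 and 5, rescaling to a median of 0, values relative to other retinal cells, the highest locus of a symbol, and, for the median and the count, limits on the mean of none and 5 FPKM. A further 2 were chosen after seeing the data: a mean of at least 100 FPKM for the median and the count, and the sum without the locus of opn1mw1 and opn1mw2. A value was taken as unchanged within 0.1 on the log2 scale and a count within 1.5 times. Of 35 recomputed values of single opsins, 3 moved by more. The highest locus of a symbol had to repeat the main values, since each opsin symbol string has 1 locus. The 2 rescalings shift every opsin by 1 constant, of 0.004 and -0.03, so neither could move a log2 value by 0.1. Pseudocounts of 0.1 and 5 are small beside the summed opsins and the 5 loci above 100 FPKM, so they could hardly move those values. Unchanged values under these alternatives are therefore no evidence of stability. The log2 difference of opn1mw3 was -0.89 with a pseudocount of 0.1 and -0.04 with one of 5, against -0.18. That of opn1lw1 was -0.22 with a pseudocount of 5, against -0.38, which put it under 1.2-fold. By its construction, a pseudocount widens or shrinks such low values. The opn1mw4 locus, listed at 0 in wild type, enters the median with no limit on the mean, and no fold of its own is reported. No paired analysis was possible because each genotype has 1 pool. What depth limits cannot be stated as counts, since none are given, and the green copies opn1mw3 and opn1mw4 lay too low for a comparison.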
